A study of Mus musculus with 6 samples.

Results

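Frizzled receptors and the coreceptors Lrp5 and Lrp6 were read on Affymetrix mouse arrays of mammary tumors and normal mammary glands. The genes are *Fzd1* to *Fzd8*, *Lrp5* and *Lrp6*, 10 of the 18193 genes that the array annotation names. They were chosen by name, as every probe set annotated with a single symbol equal to a listed gene. This gave 26 probe sets, which are groups of short oligonucleotides that read 1 stretch of a transcript each. The samples were 3 tumors of acinar histology from *K14-cre*; *ApcCKO/+* mice and 3 glands from age-matched *cre*-negative mice, with 1 array per sample. In these mice the promoter of *K14*, a keratin gene of basal and progenitor epithelial cells, drives Cre recombinase, so that 1 conditional allele of *Apc* is lost, on a mixed strain background. The tumors were heterozygous for the recombined allele and carried a truncating mutation in the remaining one, by the study's own genotyping. The *Apc* genotype of the *cre*-negative animals and the ages in months are not given in the sources used here. The labels call the samples biological replicates without saying that each came from a separate animal, so the p-values may in part measure the spread between samples of 1 mouse.

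Frizzled proteins are membrane receptors with an outer cysteine-rich domain that binds Wnt, and Lrp5 and Lrp6 are their single-pass coreceptors. When a Wnt joins the pair, the tail of the coreceptor recruits Axin and the degradation of β-catenin stops. Loss of *Apc* stabilizes β-catenin below the receptors. Some Frizzled proteins also signal without β-catenin, in planar cell polarity, and *Fzd4* has a ligand outside the Wnt family, Norrin, which acts on the endothelium of the retina. In the mammary gland Wnt signals act in the epithelium and the stroma, and *Lrp5* and *Lrp6* take part in ductal growth in the mouse.

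Scaling by the authors set a target of 500, which the trimmed mean met on all 6 arrays. The median signal was 124 to 138 in tumors and 133 to 171 in control glands. Pan-epithelial genes such as *Krt8* and *Cdh1* had summed signals of 97156 to 122278 in tumors and 15429 to 34153 in control glands, and 14 of the 17 tested rose. Signals below 50 were set to 50 before log2 values were taken. The probe set with the highest mean stood for its gene if at least 3 of the 6 arrays reached a signal of 100. This left 9 of the 10 receptor genes and 12518 genes in all. Signal depends on the probes, so levels of different genes are not compared.

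Of the 9 receptor genes tested, *Fzd4* alone passed the test between acinar tumors and control glands, at an adjusted p under 0.05 over all genes in limma. It was lower, and the other 8 genes did not pass in either direction. Over all genes 16.8% were lower and 16.3% were higher, so 1 of 9 does not exceed the background. At an unadjusted p under 0.05, 2 receptor genes were lower and none was higher, where 21.5% of all genes were lower and 23.4% higher. By the methods' t-test 1 was lower and none was higher, where 7.35% of all genes were lower and 5.47% higher. The median log2 fold change, tumor minus control and called the log2 change from here on, was −0.18 over the 9 receptor genes and 0.07 over all genes.

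**Figure D1:**
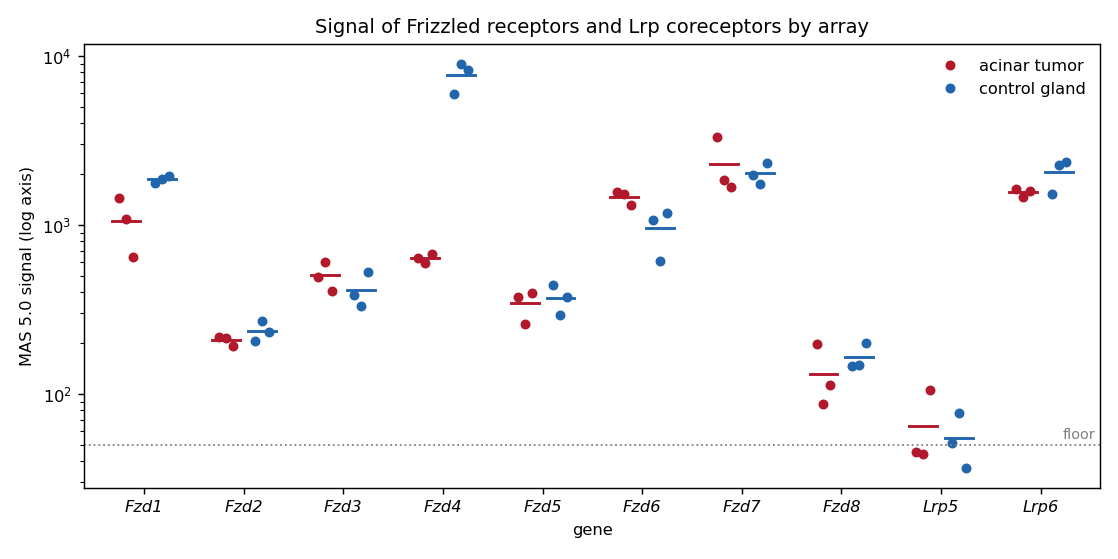
MAS 5.0 signal of the 10 receptor genes on a log axis, for the probe set that stands for each gene and the untested one of *Lrp5*, in 3 acinar tumors (red) and 3 control glands (blue). Points are arrays and bars are group means. The tumors lie at 598.0 to 675.2 for *Fzd4*, below all control glands, which lie at 5961.5 to 8935.8.

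*Fzd4* had signals of 634.8, 598.0 and 675.2 in tumors, against 5961.5, 8935.8 and 8308.1 in control glands. The 3 tumors lay close together and the groups lay far apart. The mean was 636 ± 38.6 in tumors and 7735 ± 1568 in control glands (SD, n = 3 each), a log2 change of −3.58 (95% interval −4.12 to −3.05, standard error [SE] 0.23, limma adjusted p = 0.000149), or a 12-fold lower signal. This was the 187th largest decrease of 12518 genes. None of the intervals of the other 8 receptor genes reached below −1.61. On its brightest probe set the signal of *Fzd4* stayed well above the floor of 50 in each tumor.

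These values came from probe set 1419301_at, and the other probe sets for *Fzd4* were lower as well. Probe set 1434756_at had 322.1, 254.4 and 148.8 in tumors, against 3395.8, 7863.2 and 5085.7 in control glands, and its log2 change was −4.48 (SE 0.40, limma adjusted p = 0.000314 over all probe sets). Probe set 1449416_at had 34.5, 38.7 and 7.0 in tumors, against 427.6, 959.6 and 585.6 in control glands. Each tumor was below the floor, so the signal was at least 12.4-fold lower (adjusted p = 0.000298), and that bound is set by the floor. Probe set 1449416_at reached 100 in control glands alone and so passed the filter only through the group where it was high, and its call is not counted here as support for the others. The 2 probe sets that passed the filter in both groups, 1419301_at and 1434756_at, were both called lower with no overlap between the groups. Among all probe sets tested 14.6% were lower.

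*Fzd1*, *Fzd2* and *Fzd7* form the subfamily closest to each other in sequence, and each can pass a Wnt signal to β-catenin. *Fzd1*, on 1437284_at, had 1443.1, 1088.2 and 646.3 in tumors, against 1779.1, 1859.7 and 1939.3 in control glands. All tumors lay below all control glands, as they did for 2 of the 9 receptor genes and for 23.1% of all genes, and the tumors were spread more widely. The log2 change was −0.89 (95% interval −1.61 to −0.16, SE 0.31, limma adjusted p = 0.0636), which did not pass. It passed in 2 of 20 alternatives, without tumor replicate 1 (adjusted p = 0.029, log2 change −1.15) and with a variance trend (adjusted p = 0.0484). In the other 18 it did not pass. The log2 change was −0.51 as the mean over probe sets (adjusted p = 0.255) and −0.57 without tumor replicate 3 (adjusted p = 0.129). The dim second probe set for *Fzd1* lay between 57.2 and 173.8 on all arrays and had a log2 change of −0.14 with overlapping groups.

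*Fzd7*, whose transcript marks basal mammary cells in the mouse, had, on 1450044_at, 3324.4, 1846.3 and 1683.5 in tumors, against 1984.1, 1748.9 and 2323.5 in control glands. Tumor replicate 1 was the highest of the 6 and tumor replicate 3 the lowest. The log2 change was 0.12 (95% interval −0.59 to 0.83, adjusted p = 0.789), and −0.19 without tumor replicate 1. *Fzd2*, a receptor of Wnt5a in the mouse, had, on 1418533_s_at, 217.2, 213.2 and 191.6 in tumors, against 205.2, 268.9 and 233.1 in control glands. Its log2 change was −0.18 (95% interval −0.66 to 0.30, adjusted p = 0.536), which turned to 0.03 with quantile normalization and 0.06 with equal array medians. The other probe sets of *Fzd2* had log2 changes of −0.06 and −0.64, neither called. On these brightest probe sets the intervals of *Fzd2* and *Fzd7* leave out a 2-fold difference either way, but that of 1418534_at, the *Fzd2* probe set at −0.64, ran from −1.42 to 0.13 and holds a 2-fold decrease. A 2-fold decrease of *Fzd1* also lies inside its interval.

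*Fzd5* and *Fzd8* are close relatives that also act through β-catenin. *Fzd5*, on 1455604_at, had 376.6, 259.5 and 397.8 in tumors, against 443.3, 293.2 and 375.8 in control glands, with overlapping groups. The log2 change was −0.11 (95% interval −0.73 to 0.51, adjusted p = 0.777), and it was 0.13 with equal array medians, 0.08 without tumor replicate 2 and 0.03 without control replicate 1. *Fzd8*, on 1423348_at, was dim, with 196.3, 87.0 and 112.1 in tumors, against 147.1, 147.7 and 201.3 in control glands. Its log2 change was −0.40 (95% interval −1.18 to 0.38, adjusted p = 0.394).

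*Fzd3* and *Fzd6* form the subfamily known for planar cell polarity, *Fzd3* in the guidance of axons and *Fzd6* in the patterning of hair in the mouse. *Fzd6*, on 1417301_at, had 1562.1, 1517.2 and 1308.9 in tumors, against 1069.2, 612.0 and 1177.6 in control glands. It was the only receptor gene tested with all tumors above all control glands, a pattern of 27.1% of all genes. The log2 change of 0.67 (95% interval −0.01 to 1.35, SE 0.29, limma adjusted p = 0.114) did not pass. It passed in 1 of 20 alternatives, with equal array medians (0.91, adjusted p = 0.0248), where the median over all genes was 0.31. In the other 19 it did not pass, and it was 0.38 without control replicate 2. A second, dimmer probe set for *Fzd6* had 256.6, 188.3 and 115.6 in tumors, against 155.6, 119.8 and 232.7 in control glands, which overlapped. *Fzd3*, on 1434788_at, had 491.5, 604.7 and 408.9 in tumors, against 384.4, 331.0 and 524.4 in control glands. All 3 of its tested probe sets had positive log2 changes, of 0.29, 0.49 and 0.31, and none was called.

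**Figure D2:**
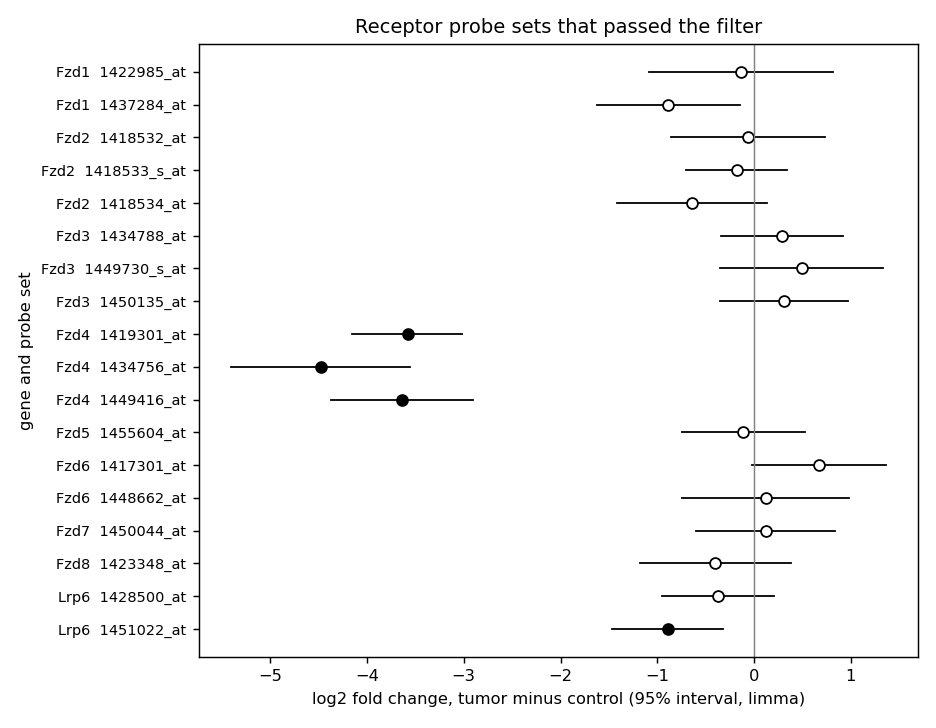
Log2 change, tumor minus control, with its 95% interval from limma, for the 18 receptor probe sets that passed the filter. Filled points have an adjusted p under 0.05 over all probe sets, which holds for the 3 probe sets of *Fzd4* and 1 of *Lrp6*, and open points do not.

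Of the coreceptors, *Lrp6* passed the test on 1 of its probe sets and *Lrp5* was too dim to test. *Lrp6* had 1639.2, 1467.7 and 1576.4 in tumors, against 1530.4, 2260.3 and 2349.0 in control glands. On this brighter probe set, 1428500_at, control replicate 1 lay among the tumors, and the log2 change was −0.37 (95% interval −0.92 to 0.19, adjusted p = 0.269). The second, 1451022_at, had 199.4, 203.0 and 231.7 in tumors, against 402.0, 309.9 and 484.1 in control glands, with no overlap. Its log2 change was −0.89 (95% interval −1.47 to −0.32, SE 0.25, limma adjusted p = 0.0329 over all probe sets). That call was kept in 8 of 18 alternatives and lost in 10, among them any tumor left out (0.0774, 0.0877 and 0.0612) and the replicate block (0.0546). The single probe set for *Lrp5*, 1449299_at, had 45.1, 44.1 and 105.3 in tumors, against 51.4, 77.4 and 36.6 in control glands, and reached 100 on 1 array. A difference in *Lrp5* was therefore not detectable here.

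The remaining receptor probe sets failed the filter. Of the 26, 8 did so, counting that of *Lrp5*, and 3 of these lay below 50 on all 6 arrays, 2 for *Fzd3* and 1 for *Fzd7*. The dim second probe set for *Fzd5* had 69.4, 72.2 and 93.8 in tumors, against 14.5, 27.3 and 58.0 in control glands. These signals lie near the floor and were not tested.

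The other Frizzled class receptors on the array were *Fzd9*, *Fzd10* and *Smo*. *Fzd9*, which with *Fzd10* is the nearest relative of *Fzd4*, had 178.6, 351.2 and 659.8 in tumors, against 74.7, 58.4 and 96.6 in control glands. All tumors lay above all control glands, and the log2 change was 2.21 (SE 0.47, limma adjusted p = 0.0111). *Fzd9* passed the filter only through the 3 tumors, no control gland reaching 100, so that it fails the filter without any 1 tumor, and it had to differ to be tested. With no filter, where that choice falls away, it did not pass (adjusted p = 0.059), nor did it by the methods' t-test. *Fzd10* had a log2 change of 0.48 (adjusted p = 0.467), and *Smo*, the Hedgehog transducer of the same class, had −0.04 (adjusted p = 0.921), or 0.20 with equal array medians.

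Partners of *Fzd4* in Norrin and Wnt7 signaling were read next. *Ndp*, which encodes Norrin, had 360.3, 209.7 and 136.9 in tumors, against 90.2, 88.2 and 77.5 in control glands, a log2 change of 1.36 (SE 0.35, limma adjusted p = 0.0237). *Ndp* too passed the filter only through the 3 tumors and fails it without any 1 of them, and with no filter it did not pass the test (0.0804). Its call was also lost by the methods' t-test and without control replicate 1, 2 or 3 (0.0547, 0.0567 and 0.0752). *Tspan12*, which amplifies the Norrin signal at Fzd4, had a log2 change of −0.36 (adjusted p = 0.402), and *Reck*, a partner in Wnt7 signaling, had −0.34 (adjusted p = 0.64), or 0.07 without tumor replicate 3. The fourth gene of this list, *Adgra2*, did not pass the filter.

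Genes that act on the receptors moved in both directions. *Rnf43* and *Znrf3*, ubiquitin ligases that remove Frizzled from the membrane and are themselves β-catenin targets, both rose. *Rnf43* had 1472.8, 1400.0 and 1912.5 in tumors, against 204.5, 95 and 249.3 in control glands, a log2 change of 3.22 (adjusted p = 0.00114). *Znrf3* had 1595.6, 1387.6 and 2063.0 in tumors, against 497.3, 515.8 and 480.2 in control glands, a log2 change of 1.74 (adjusted p = 0.00162). Both calls were kept in all 20 alternatives. Of 5 tested antagonists that bind Wnt or Frizzled, 3 were lower and 1 was higher. *Sfrp5*, *Sfrp4* and *Sfrp1*, secreted proteins with a Frizzled-like domain, had log2 changes of −2.89, −1.91 and −1.77, and *Wif1*, a secreted Wnt binder, had 3.14. Those 4 calls were lost by the methods' t-test and with no filter (limma adjusted p from 0.0602 to 0.0863), and that of *Sfrp1* also without tumor replicate 2 or 3 (0.0503 and 0.0624). Of 6 tested antagonists of Lrp5 and Lrp6, 1 was higher, *Notum*, an enzyme that inactivates Wnt itself, and 1 was lower. Among R-spondins, Lgr receptors and the ligases, 3 of 5 were higher, *Rnf43*, *Znrf3* and *Lgr6*, and 1 was lower, *Lgr5*. *Lgr6* had a log2 change of 3.35 (limma adjusted p = 0.00818) and *Lgr5* −2.06 (adjusted p = 0.00137). *Lgr4*, at 0.79 (adjusted p = 0.0667), did not pass. Over all genes 16.3% were higher and 16.8% lower. *Notum* passed the filter through the tumors alone and *Lgr5* through the control glands alone.

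Of 8 tested relatives of Lrp5 and Lrp6 in the LDL receptor family, 4 fell and none rose, and their median log2 change was −0.71. *Lrp1*, an endocytic receptor, had 549.3, 218.1 and 206.8 in tumors, against 2392.6, 2669.0 and 2341.3 in control glands, a log2 change of −3.08 (adjusted p = 0.00152). *Lrp11* had −1.88 and *Vldlr*, a lipoprotein receptor, −1.48, calls that the methods' t-test did not make. The fourth, *Lrp2*, had −0.78 and kept its call in 6 of 16 alternatives. *Lrp11* and *Lrp2* passed the filter only through the control glands, where they were high, so that 2 of the 4 falls were in part fixed by the filter. With no filter their adjusted p-values in limma were 0.0373 and 0.0385. The same holds for 2 of the 4 lower Wnt ligands below, and among the β-catenin targets for 1 of those higher, through the tumors, and 2 of those lower. For comparison, 8 of the 19 Wnt ligands on the array passed the filter, of which 4 were lower and none was higher. Of 15 tested β-catenin targets 10 were higher and 3 were lower. Over all genes 16.3% were higher and 16.8% lower, the background for each count in this paragraph. Of 18 transducers below the receptors 4 were higher and 2 were lower, of 6 other Wnt receptors 1 was higher, of 8 heparan sulfate proteoglycans 1 was higher, and of 3 genes of Wnt secretion 1 was higher and 1 was lower.

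**Figure D3:**
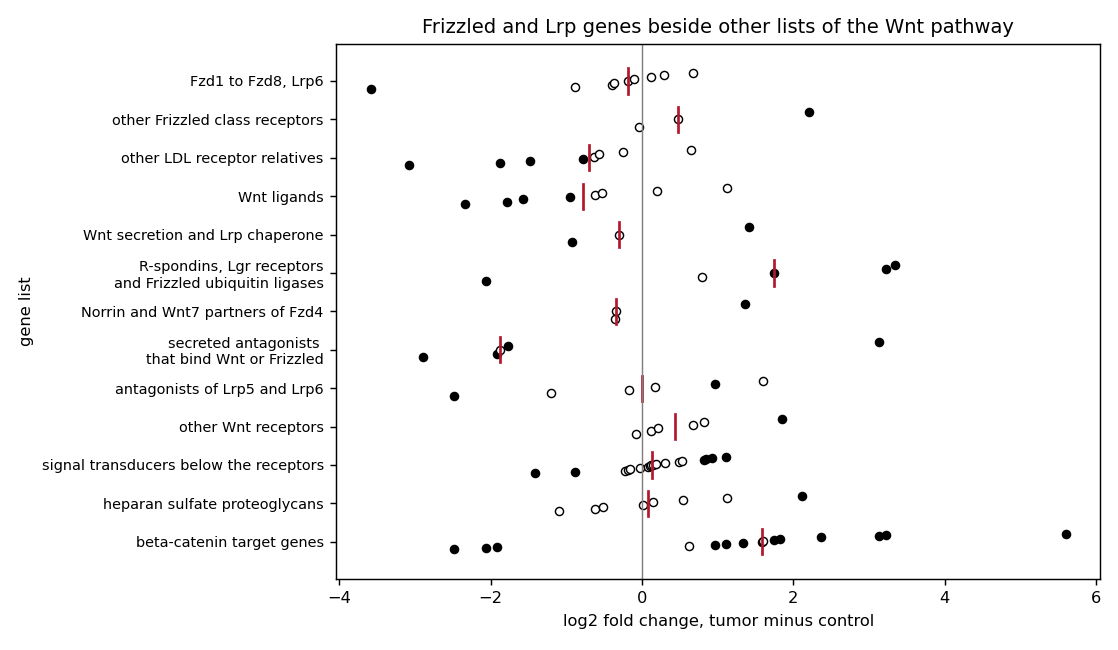
Log2 change, tumor minus control, of each tested gene in 13 lists, with the receptor genes at the top. Filling marks an adjusted p under 0.05 in limma, and red lines are list medians, −0.18 for the receptors and 1.59 for the β-catenin targets. Some genes stand in more than 1 list.

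Stromal markers were lower in the same tumors in which *Fzd4* was lower, and fewer cells of a type cannot be told apart from less RNA per cell in whole tissue. All 14 tested adipocyte markers fell, with a median log2 change of −5.30 and a summed signal of 10024 to 20604 in tumors and 200418 to 263952 in control glands. Of 15 fibroblast markers 12 fell, with a median of −3.07 and sums of 3578 to 18320 in tumors and 70654 to 84933 in control glands. Of 14 endothelial markers 12 fell, with a median of −1.89 and sums of 2599 to 5497 in tumors and 12694 to 17050 in control glands. Over all genes 16.8% were lower. Of these marker falls 1 adipocyte and 1 endothelial marker passed the filter only through the control glands. No marker of these 3 lists had a signal of 0, and 1 adipocyte marker lay below 50 in every tumor. The fall of *Fzd4*, at −3.58, was larger than the median of the endothelial and the fibroblast list and smaller than that of the adipocyte list. The part of these cell types in the result for *Fzd4* was not tested.

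Some of these markers varied between tumors more than *Fzd4* did. *Adipoq*, the adiponectin gene of adipocytes, had 256.2, 1772.1 and 14.8 in tumors, against 42044.7, 30145.2 and 27446.7 in control glands. *Dpt*, a matrix gene of fibroblasts, had 329.3, 937.2 and 70.2 in tumors, against 12378.4, 15447.6 and 16090.2 in control glands. *Fzd4* stayed between 598.0 and 675.2 in the same 3 tumors on its brightest probe set, although 1434756_at varied from 148.8 to 322.1. *Ptprb*, a phosphatase of endothelium, was also even across tumors, with 354.2, 361.0 and 305.4 in tumors, against 2668.7, 3225.7 and 4185.8 in control glands, a log2 change of −3.28. *Lpl*, the lipoprotein lipase of adipocytes, had 3429.5, 2874.1 and 2002.9 in tumors, against 44829.1, 33165.5 and 29198.9 in control glands, at −3.70. Skeletal muscle markers were uneven, with sums of 1297 to 48930 in tumors and 8968 to 248929 in control glands, and none of 12 passed. Of the other marker lists, 4 of 15 basal genes rose and 2 fell, 2 of 11 luminal genes rose and 4 fell, 4 of 7 immune genes fell, 1 of 5 nerve genes rose and 2 fell, and all 9 proliferation genes rose, 2 of them having passed the filter through the tumors alone. So had 1 of the pan-epithelial genes that rose, and 1 luminal and 1 immune gene that fell had passed through the control glands alone. The background for each marker count, that of the pan-epithelial genes included, is 16.3% higher and 16.8% lower over all genes.

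**Figure D4:**
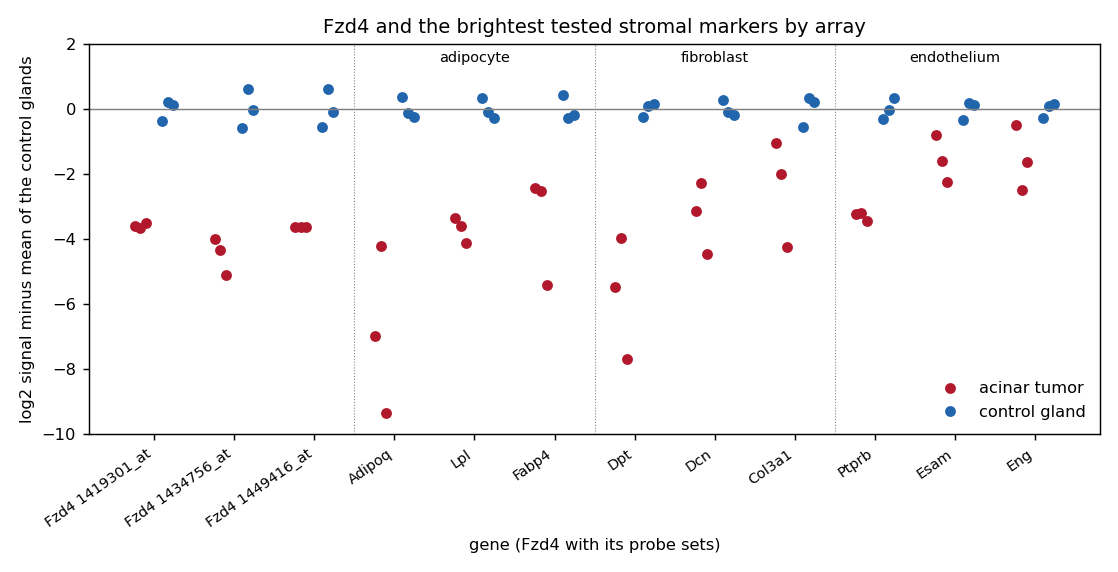
Log2 signal minus the mean of the control glands, with values below 50 set to 50, for the 3 probe sets of *Fzd4* and the 3 brightest tested markers of adipocytes, fibroblasts and endothelium. Red points are the 3 tumors and blue points the 3 control glands. All tumors lie below all control glands in each column. Tumors spread over several log2 units for *Adipoq* and *Dpt*, but not for 1419301_at, *Lpl* or *Ptprb*. On 1434756_at tumors ran from 148.8 to 322.1, and on 1449416_at they coincide because each is set to 50.

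The genes whose profile over the 6 arrays was nearest to that of *Fzd4* were *Slit3*, *Ppp1r1a* and *Negr1*, with root mean square distances of 0.089, 0.10 and 0.103 on the log2 scale after centering each gene. *Slit3*, a secreted guidance molecule, had 18.6, 7.3 and 9.5 in tumors, against 524.5, 682.5 and 709.0 in control glands. *Ppp1r1a*, an inhibitor of a protein phosphatase, had 33.2, 15.2 and 24.4 in tumors, against 465.1, 825.1 and 660.8 in control glands. *Negr1*, a cell adhesion molecule of neurons, had 18.9, 3.0 and 6.4 in tumors, against 529.6, 654.4 and 706.6 in control glands. All 3 lay below 50 in every tumor and passed the filter only through the control glands. Below 50 the floor makes a profile flat, whereas the *Fzd4* probe set compared here, 1419301_at, was measured above it.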

How the data were processed

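Total RNA of 3 acinar tumors and 3 control glands was hybridized to GeneChip M430 2.0 arrays. Deposited values are linear intensity, which the authors derived by MAS 5.0 and scaled per array to a target of 500. Detection calls were not used here. MAS 5.0 subtracts mismatch probes, so low signals are noisy. Of 45037 probe sets without controls, 34945 had 1 symbol in the platform annotation, 932 several and 9160 none.

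Log2 values (floor 50, filter of 100 on 3 of 6 arrays, brightest probe set per gene) entered limma 3.58.1 (R 4.3.3; lmFit, eBayes, 2-sided), with Benjamini-Hochberg adjustment over 12518 genes, or over 26967 probe sets where stated. The limma fit with its adjustment was tested on simulated log2 values, drawn independently for each gene and array. That test does not cover differences that many genes share, such as those between mixtures of cell types. The floor, the filter, the choice of probe set and the methods' t-test were not tested in that way. An exact permutation test of 3 against 3 cannot give a p below 0.1, and the number of arrays limits the precision.

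The receptor genes, the gene lists and the naming rule were chosen with earlier results of these data known. The rule selects all receptor genes and the 3 nearest profiles. Per pathway list it selects up to 4 called genes with the largest change and up to 2 furthest from passing. Per marker list it selects the 3 brightest tested genes. Not every gene so selected is described in the text. *Wnt4*, *Ror1* and *Tnfrsf19*, for example, enter only through the counts of their lists. The methods' t-test compared linear signals with unequal variances, at a statistic of at least 4.5 and at least 2-fold. Alternatives covered floors, scaling, filters, the variance trend, the replicate block, probe set choice and each array left out.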

Additional observations from a re-analysis of the deposited data

How the results depend on the processing

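*Fzd4* kept its direction and its call in all 20 alternatives, with log2 fold changes from −3.90 to −3.35 and adjusted p-values from 8.05e-05 to 0.00274 in limma. The count of lower receptor genes was 1, and 2 with a variance trend, where *Fzd1* was added. With 1 array left out it ran from 1 to 2. The count of higher receptor genes was 0, and 1 with equal array medians, where *Fzd6* was added. With equal array medians the median over all genes was 0.31 in place of 0.07, and 64.5% of called genes were higher in place of 49.4%. Of the 18 receptor probe sets tested 4 were called, all of them lower, where 14.6% of all probe sets were lower. Among the 4 is 1449416_at, which passed the filter only through the control glands. The count was 1 by the methods' t-test and 2 to 4 with 1 array left out. Without control replicate 1 or 3 there were 2, since 1449416_at reached 100 on only 3 arrays, all of them control glands, and so failed the filter, and the probe set of *Lrp6* was lost. At a floor of 100 the bound for 1449416_at was −2.64. The direction of uncalled genes turned in some settings. With quantile normalization *Fzd2* had 0.03 and the dim probe set of *Fzd1* 0.07. With equal array medians *Fzd2* had 0.06, that probe set of *Fzd1* 0.08, *Fzd5* 0.13 and *Smo* 0.20. With 1 array left out *Fzd5* ran from −0.27 to 0.08, *Fzd7* from −0.19 to 0.31, *Smo* from −0.31 to 0.12, *Reck* from −0.91 to 0.07 and the dim probe set of *Fzd6* from −0.14 to 0.43. The causes were not tested. The methods' t-test called 685 genes higher and 920 lower, against 2045 and 2098, and after Benjamini-Hochberg adjustment 140 genes passed and no receptor gene.

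The replicate number used as a replicate block left 1 lower and 0 higher receptor genes. It ended the call of the second *Lrp6* probe set. Deviations of same-numbered samples from their group means correlated at −0.22, 0.02 and 0.04, and those of differently numbered samples at −0.16 to 0.13. The labels state no pairing, and these correlations cannot show whether the samples were paired. Signals near 50 limit *Lrp5* and the dim probe sets. *Fzd8*, at 87.0 to 201.3 on its tested probe set, was dim without falling below 50.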
